A study of Mus musculus with 17 samples.

Results

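The 36 genes described here carry out fatty acid oxidation or are targets and partners of the peroxisome proliferator-activated receptors (PPAR). They were taken from a fixed list of names, and all 36 were found in the annotation among 21938 protein-coding genes. Their promoters and gene windows were read in 17 kidney ATAC-seq libraries of 20000 cells each, an assay in which a transposase cuts and tags DNA that is not packed away. Wild-type male C57BL/6 mice formed the Ctrl group (n = 5). Male db/db mice, which lack a working leptin receptor on the BKS background (BKS.Cg-Dock7m +/+ Leprdb/J), were the 6 mice named Case. A further 6 db/db mice of that stock, named Dapa, were given dapagliflozin, an inhibitor of the proximal tubular glucose transporter SGLT2, at 1 mg/kg/day by mouth for 6 weeks from 8 weeks of age. The mice not given the drug received saline, also for 6 weeks from 8 weeks of age. Strain, leptin receptor genotype and diabetes differ together between Ctrl and both db/db groups and cannot be told apart, and both comparisons with Ctrl share the same 5 control mice. Libraries are of mixed kidney cells, so fewer cells of a type and less open chromatin per cell cannot be told apart either.

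Each library was a list of summits, the positions where accessibility peaked, with the caller's score. Lists held 37402 to 56659 summits in Ctrl, 29702 to 51292 in Case and 32846 to 49442 in Dapa. To keep list length from setting the counts, each library was cut to its 29702 highest-scoring summits, and a summit was given its rank percentile in that list (0 lowest, 100 highest). A promoter was the stretch within 1 kb of any annotated transcription start, and a gene window ran from 10 kb upstream of the gene to its end. Read depth is unknown, so a missing summit means only that none was called. The kidney label was checked against marker genes. Of 12 proximal tubule markers, 9 had a summit in their window in all 17 lists (75%, against 41.4% of protein-coding genes). At the promoter Lrp2, Hnf4a and Miox had one in all 17 (25%, against 31.6%). Slc22a8 had no promoter summit in any list, and Slc5a2 had one in 4 Ctrl, 1 Case and 4 Dapa mice. Of 8 thick limb and distal nephron markers, Slc12a3 alone was open at the promoter in all 17. Of the other cell types, 8 of 10 adipocyte, 6 of 8 endothelial and 4 of 12 leukocyte markers had no promoter summit in any list. Over all protein-coding genes that share was 32.9%, so the leukocyte share (33.3%) does not differ from the background. Leukocyte promoters were uneven between mice. Case 3 had a summit at 6 of the 12 and Dapa 8 at 5, against 0 to 2 in every other mouse.

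Fatty acids enter the mitochondrion as carnitine esters, are shortened in cycles of beta-oxidation, and pass their electrons through the electron transfer flavoprotein to the respiratory chain. PPAR alpha, paired with the retinoid X receptor, switches on most of these genes when fatty acids are abundant, with the coactivator PGC-1 alpha and the estrogen-related receptor alpha. The proximal tubule depends on this fuel for its transport work.

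The data showed a set of promoters that was open in nearly every mouse of all 3 groups. A promoter summit was present in all 17 equal-length lists for 24 of the 36 genes (66.7%), against 6924 of 21938 protein-coding genes (31.6%), and none of the 36 lacked one in every list, against 32.9% of protein-coding genes. In the complete lists the number was 26 of 36. A gene could be counted through different starts in different mice, and these shares were not adjusted for the number of annotated starts per gene. The gene window held a summit in all 17 lists for 29 of 36 genes (80.6%, against 41.4%). Once open, these promoters ranked like other constantly open ones: the median of the mean percentile was 83.0 over the 24 genes and 83.3 over the 6924. Of 60 other genes of the pathway, 28 had a promoter summit in all 17 lists and 6 in none.

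CpG dinucleotides are dense at promoters that are open in most cell types. In 300-base stretches around the summits, the ratio of observed to expected CpG had a median of 0.56 over the 30 regions of these genes found in all 17 lists and 0.207 over their 102 regions found in fewer. Over all regions of the genome the same medians were 0.774 and 0.231, and the sets overlapped widely. The following stretches, from the RefSeq genome (GRCm38.p6, the mm10 build), show the range, with every CpG in capitals. Etfdh and the main Acsl1 promoter ranked at 83.4 or higher in every mouse, the internal Acsl1 start had the largest difference from Ctrl among the 30 regions of these genes with a summit in all 17 lists, and the Angptl4 region the largest among the 24 promoters so tested.

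Etfdh region 1, chr3:79628739-79629038, plus strand: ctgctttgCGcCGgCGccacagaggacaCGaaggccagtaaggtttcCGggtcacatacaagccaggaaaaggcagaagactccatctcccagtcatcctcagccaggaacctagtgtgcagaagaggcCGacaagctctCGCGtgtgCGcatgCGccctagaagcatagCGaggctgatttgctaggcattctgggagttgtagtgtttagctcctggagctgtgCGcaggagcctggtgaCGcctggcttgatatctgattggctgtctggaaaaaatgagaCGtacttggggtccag

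Acsl1 region 1, chr8:46470781-46471080, plus strand: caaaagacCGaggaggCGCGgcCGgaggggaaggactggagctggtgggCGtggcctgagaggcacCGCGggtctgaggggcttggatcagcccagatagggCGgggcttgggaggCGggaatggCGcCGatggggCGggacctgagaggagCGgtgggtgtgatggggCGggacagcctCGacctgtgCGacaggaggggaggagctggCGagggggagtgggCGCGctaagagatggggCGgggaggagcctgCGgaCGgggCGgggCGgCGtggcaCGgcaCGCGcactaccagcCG

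Acsl1 region 5, chr8:46490868-46491167, plus strand: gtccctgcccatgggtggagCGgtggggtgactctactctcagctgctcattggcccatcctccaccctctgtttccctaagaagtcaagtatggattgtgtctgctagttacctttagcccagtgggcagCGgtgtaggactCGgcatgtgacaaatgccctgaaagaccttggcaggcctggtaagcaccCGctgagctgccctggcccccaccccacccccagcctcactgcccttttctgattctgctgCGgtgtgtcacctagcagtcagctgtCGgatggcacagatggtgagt

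Angptl4 region 1, chr17:33779309-33779608, plus strand: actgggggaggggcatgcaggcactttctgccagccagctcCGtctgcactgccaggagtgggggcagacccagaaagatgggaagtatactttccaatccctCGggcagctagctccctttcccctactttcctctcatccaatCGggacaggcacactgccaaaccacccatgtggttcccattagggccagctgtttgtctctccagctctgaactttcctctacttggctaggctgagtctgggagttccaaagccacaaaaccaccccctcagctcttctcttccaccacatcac

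These 4 stretches hold 14, 29, 6 and 3 CpG, in the order printed.

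Sites for the receptors themselves were searched on both strands, in these stretches and in promoter sequences from RefSeq (250 bases before to 50 after a start), which were found for 29 of the 36 genes. Those of Ppargc1a, Bdh1 and Cd36 did not overlap a region with summits. The element that PPAR binds with the retinoid X receptor is a direct repeat of the half-site AGGNCA with 1 base between the copies. None of the 32 promoter sequences of the 29 genes and none of the 132 regions around member summits held it in this form, against 0.381% of all 32851 promoters in that table and 0.948% of all 52423 regions. The letters TNAAGGTCA, a half-site of the estrogen-related receptors, were in none of the 32 promoter sequences (1.28% of all promoters) and in 5 of the 132 regions (3.79%, against 1.81% of all regions). These 5 lay in introns of Rxra, Cpt1a, Crat, Decr1 and Bdh1. Only the Crat intron region was found in most mice, in 15 of 17, and its stretch is printed with the half-site in capitals.

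Crat region 1, chr2:30409499-30409798, plus strand: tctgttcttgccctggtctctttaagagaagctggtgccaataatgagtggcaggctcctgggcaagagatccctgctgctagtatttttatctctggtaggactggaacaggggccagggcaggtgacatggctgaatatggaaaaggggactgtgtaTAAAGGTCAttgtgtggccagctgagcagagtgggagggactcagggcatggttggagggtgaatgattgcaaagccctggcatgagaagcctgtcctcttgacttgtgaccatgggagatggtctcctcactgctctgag

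Crat encodes the carnitine acetyltransferase that buffers acetyl groups. Its intron region, 6.17 kb into the gene, is described for its half-site and its presence in most mice, and was chosen after its values were seen. In Ctrl mice its percentile was 28.9, 36.7, 27.5, 52.5 and 37.3. In Case mice it was 95.0, 67.3, 83.2 and 91.5, with no summit in Case 2 and Case 3, and in Dapa mice 70.5, 27.6, 27.9, 71.9, 74.2 and 80.9. Where a Case library had the summit, it ranked above every Ctrl library, while the Dapa libraries overlapped both. With missing summits set to 0, the difference of Case minus Ctrl was 19.6 ± 17.7 percentile points (SE, limma, adjusted p = 0.654).

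**Figure D1:**
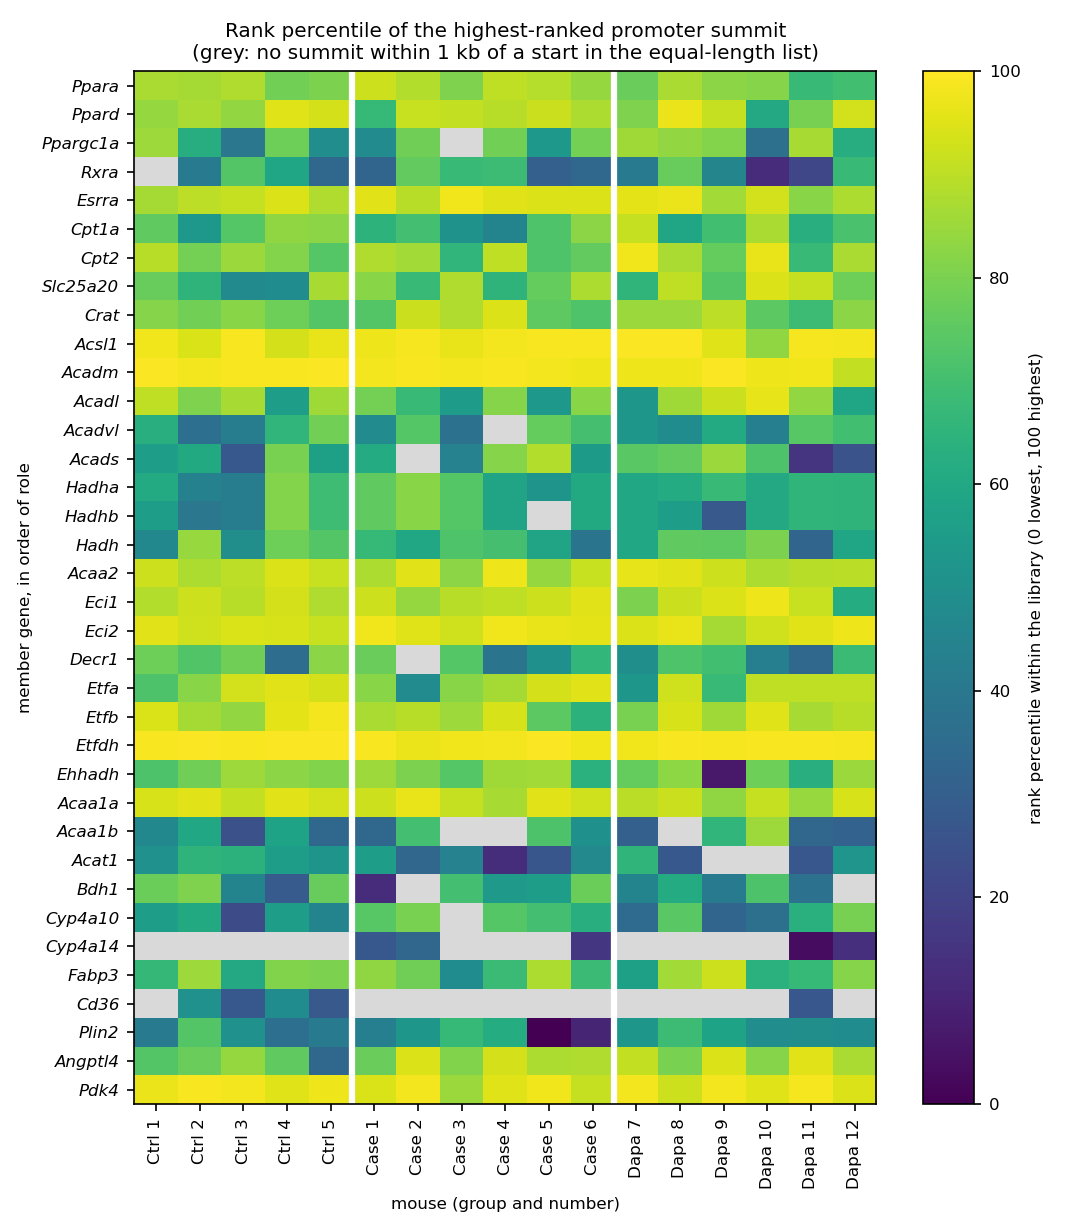
Rank percentile of the highest-ranked promoter summit of each of the 36 genes (rows, by role) in each of the 17 mice (columns), from 0 (dark) to 100 (yellow), with grey for no summit. Etfdh, Acadm, Acsl1 and Pdk4 are at 83.4 or higher in every mouse, and the grey cells lie mostly at Cyp4a14 and Cd36.

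Group by group, the share of the 36 promoters with a summit was 96.1% ± 2.48 for the 5 Ctrl mice (mean ± SD, as for each share below), 91.7% ± 4.65 for the 6 Case mice and 94.0% ± 3.25 for the 6 Dapa mice. In shorter lists, of the 14851 highest-scoring summits, the order turned, with 79.4% for Ctrl, 80.1% for Case and 79.2% for Dapa. Single mice of the longer lists ran from 91.7% to 97.2% in Ctrl, from 86.1% to 97.2% in Case and from 91.7% to 100% in Dapa, so the groups overlapped. Over all protein-coding genes the same share came to 51.5% ± 0.47, 47.7% ± 1.61 and 48.5% ± 1.68, the same order. Gene windows held a summit for 99.4% ± 1.24, 96.8% ± 3.69 and 96.8% ± 3.25 of the 36 genes in Ctrl, Case and Dapa, and for 88.3%, 89.8% and 89.4% in the lists of 14851. Case 3 had the fewest promoters (31) and, with Dapa 10, the fewest windows (33), and it had the most leukocyte promoters. Without it the Case shares were 92.8% and 97.8%. Of the 12 proximal tubule markers, 98.3% had a summit in the window in Ctrl, 86.1% in Case and 94.4% in Dapa. In the lists of 14851 these shares were 78.3%, 75% and 80.6%. The part of cell makeup in these shares was not tested.

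**Figure D2:**
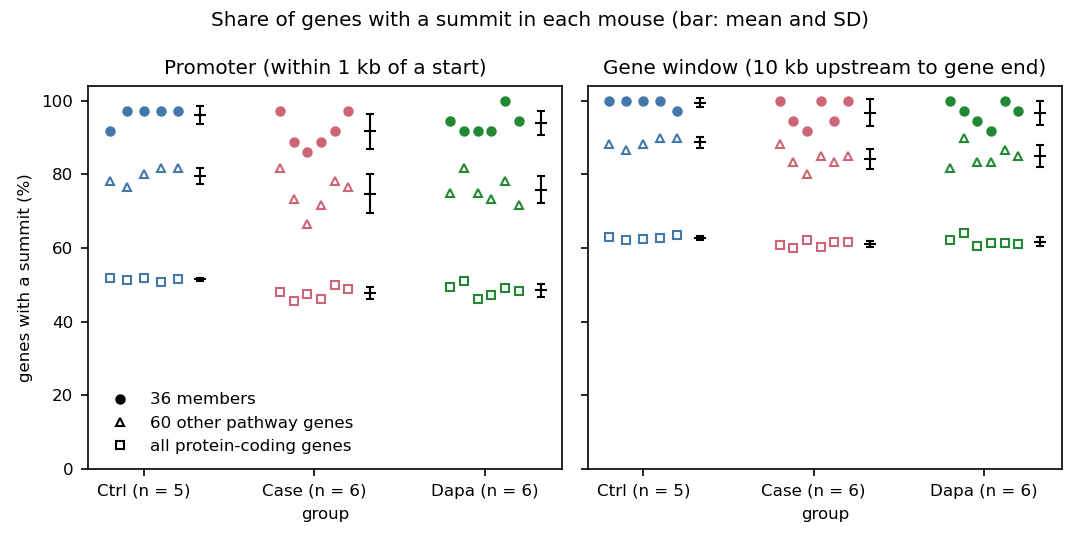
Percentage of genes with a summit in each mouse (points; bars, mean and SD per group) at promoters and in gene windows, for the 36 genes, 60 other pathway genes and all protein-coding genes. The 36 genes lie between 86.1% and 100% at promoters, far above the 45.7% to 52.0% of all protein-coding genes, and both have their highest mean in Ctrl, though in lists of 14851 summits that of the 36 genes is highest in Case (80.1%).

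Among the regulators, Ppara, the receptor that responds to fatty acids, Ppard, its close relative, and Esrra, the estrogen-related receptor, had a promoter summit in all 17 lists, while Ppargc1a, the coactivator PGC-1 alpha, and Rxra, the partner receptor, each had one in 16. Ppargc1a lacked it in Case 3 and Rxra in Ctrl 1, where the complete list held it. No single Rxra promoter region was in 16 lists. Its promoter summits lay in regions found in 9, 7, 2 and 12 mice, up to 64 kb into the gene. The Ppara promoter stood at 87.2, 86.6, 88.2, 78.7 and 80.3 in Ctrl, at 92.4, 88.6, 80.5, 90.6, 89.0 and 84.2 in Case, and at 77.3, 87.4, 82.7, 82.0, 67.5 and 69.9 in Dapa. The Dapa values lay lowest on average but overlapped both other groups. Dapa minus Case was −9.77 ± 4.74 percentile points (SE, limma, adjusted p = 0.809, exact permutation test, p = 0.026), and −6.02 in the complete lists. Permutation p-values here and below are unadjusted, and most features given with one were named for a low p in these data. Ppara also had a region 9999 bases upstream of its start, just inside the window (chr15:85724676-85725489). Its summit was present in 5 of 5 Ctrl mice, 4 of 6 Case mice and 1 of 6 Dapa mice (Fisher's exact test, Dapa against Ctrl, p = 0.0152, adjusted p = 0.188), and in the lists cut to 14851 summits this difference was almost gone (−0.0333 as a difference in share). The Ctrl summits there stood at 1.02, 11.9, 11.3, 51.5 and 42.3, and those of the 4 Case mice at 39.0, 58.2, 30.5 and 38.7. Esrra stood between 86.5 and 94.9 in Ctrl, 89.2 and 97.7 in Case, and 82.3 and 97.0 in Dapa. A region 35.8 kb into Ppard was seen in 1 of 5 Ctrl mice, 2 of 6 Case mice and 5 of 6 Dapa mice (Fisher's exact test, Dapa against Ctrl, p = 0.0801, adjusted p = 0.395). Its summits stood at 48.8 or lower, so none was among the 14851 highest-scoring of its list.

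The carnitine shuttle was open in every mouse. Cpt1a, the outer carnitine palmitoyltransferase that sets the rate of entry, Cpt2, its inner partner, Slc25a20, the carrier between them, Crat, and Acsl1, which activates long-chain fatty acids, all had a promoter summit in 17 of 17 lists. The Cpt1a promoter stood at 75.5, 53.5, 73.6, 83.3 and 82.5 in Ctrl, at 64.7, 70.0, 50.9, 45.3, 72.3 and 82.5 in Case, and at 91.1, 59.2, 69.8, 87.2, 62.7 and 71.4 in Dapa. Each value is the higher of region 2 and region 5, which lie 0.97 and 11.2 kb into the gene. In Ctrl 1, for example, they stood at 54.0 and 75.5. The 3 groups overlapped throughout, with differences of −9.37 ± 8.25 for Case minus Ctrl and 9.28 ± 7.87 for Dapa minus Case (SE, limma, adjusted p = 0.729 and 0.861). Slc25a20 stood at 76.7, 64.9, 47.8, 48.6 and 87.0 in Ctrl, at 82.1, 67.6, 88.1, 65.2, 76.2 and 87.5 in Case, and at 65.6, 90.4, 73.2, 94.6, 91.1 and 77.8 in Dapa. Its Ctrl values reached both the lowest percentiles and nearly the highest. Dapa minus Ctrl was 17.1 ± 7.78 (SE, limma, adjusted p = 0.383, exact permutation test, p = 0.0823), and 9.45 in the complete lists. Case minus Ctrl was 12.8 (limma, adjusted p = 0.592), and 3.78 in the complete lists.

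Acsl1 showed the largest difference among the 30 regions with a summit in all 17 lists. Its main promoter stood between 83.4 and 99.5 in all 17 mice and did not separate the groups. A second annotated start 20 kb into the gene (Acsl1 region 5, chr8:46490682-46491340) stood at 18.2, 4.81, 35.3, 28.8 and 27.9 in Ctrl, at 84.5, 43.3, 30.9, 79.9, 76.2 and 47.2 in Case, and at 81.5, 48.8, 77.8, 52.5, 53.7 and 59.0 in Dapa. All 6 Dapa mice and 5 of 6 Case mice lay above every Ctrl mouse, and Case 3 lay within the Ctrl range. Case minus Ctrl was 37.3 ± 10.6 percentile points (SE, limma, adjusted p = 0.131, exact permutation test, p = 0.013) and Dapa minus Ctrl 39.2 ± 10.6 (adjusted p = 0.126, exact permutation test, p = 0.00216), neither past the adjusted threshold of 0.05. The permutation p of 0.00216 is unadjusted and the smallest that test can give here. Dapa minus Case was 1.88 ± 10.1 (limma, adjusted p = 0.995). Over 24 alternatives on the percentile scale Case minus Ctrl ran from 16.1 to 43.2, with adjusted p from 0.0757 to 0.444. The lowest came from the complete lists, which differ in length between groups, and the highest without Case 3. In the complete lists Dapa minus Ctrl was 22.4 (limma, adjusted p = 0.4). A further intron region 28.8 kb into Acsl1 stood between 75.0 and 97.2 in all mice.

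**Figure D3:**
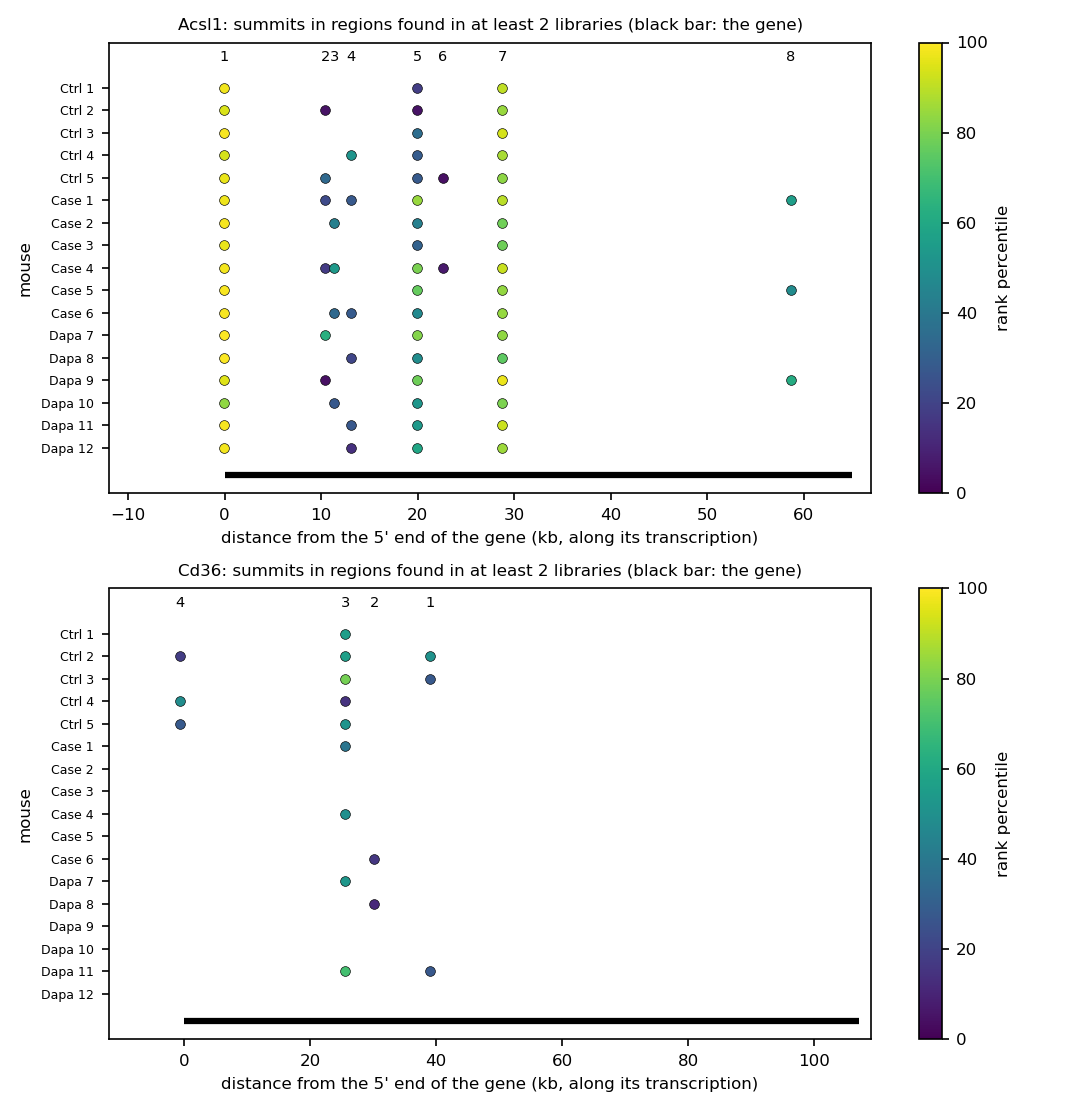
Summits along Acsl1 and Cd36 in each mouse (rows), by distance in kb from the 5′ end of the gene, coloured by rank percentile, with region numbers above and the gene as a black bar. At Acsl1, regions 1, 5 and 7 are present in all 17 mice, and region 5 is darkest in Ctrl (4.81 to 35.3). At Cd36, summits are more frequent in Ctrl, as at region 3 in 5 of 5 Ctrl mice, 2 of 6 Case mice and 2 of 6 Dapa mice, but not at region 2.

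Of the 11 genes of mitochondrial beta-oxidation, 7 had a promoter summit in all 17 lists: Acadm and Acadl, dehydrogenases for medium and long chains, Hadha, a subunit of the trifunctional protein, Hadh, the short-chain hydroxyacyl dehydrogenase, Acaa2, the thiolase, and the isomerases Eci1 and Eci2. Acadvl and Acads, dehydrogenases for very long and short chains, Hadhb, the other trifunctional subunit, and Decr1, the dienoyl reductase, each missed it in 1 Case mouse (Case 4, Case 2, Case 5 and Case 2). Hadha and Hadhb start 86 bases apart on opposite strands and share the region between them, so they are not independent, while Hadha has other promoter regions of its own. No single region of Hadha or Hadh was in all 17 lists, so their counts combine different promoter regions. Acadm was among the highest-ranked promoters, from 98.4 to 99.5 in Ctrl, 97.4 to 98.9 in Case and 90.9 to 99.4 in Dapa. Dapa minus Ctrl was −2.34 ± 1.08 (SE, limma, adjusted p = 0.388, exact permutation test, p = 0.0346), and −1.18 without Dapa 12. Acadvl, in contrast, ran from 36.7 to 78.8 over the 16 mice with a summit. The widest spread among these genes was that of Acads, from 15.2 to 88.3.

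A region 5.53 kb upstream of Acadvl (chr11:70020577-70021958) lies inside Dlg4, a gene of the other strand, and its nearest start is one of Dlg4, 2062 bases away. It stood at 48.9, 36.7, 42.1, 84.7 and 70.8 in Ctrl, at 86.7, 73.7, 79.9, 89.4, 83.2 and 84.5 in Case, and at 74.6, 81.6, 52.4, 80.1, 83.6 and 69.9 in Dapa. All 6 Case mice lay above 4 of the 5 Ctrl mice, and Ctrl 4 lay among them. Case minus Ctrl was 26.2 ± 7.96 (SE, limma, adjusted p = 0.155, exact permutation test, p = 0.0152). Without Ctrl 4 it was 33.3 with an adjusted p of 0.0307 by limma. Over 23 alternatives the adjusted p ran from 0.0307 to 0.362, and in the complete lists the difference was 13.3.

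The electron transfer genes Etfa and Etfb, subunits of the flavoprotein, and Etfdh, the dehydrogenase that passes its electrons on, had a promoter summit in every list. Etfdh was the highest and steadiest of the 36, at 99.1, 99.4, 99.0, 99.5 and 99.6 in Ctrl, at 99.0, 97.0, 98.0, 98.2, 99.3 and 97.9 in Case, and at 97.8, 99.2, 98.7, 98.9, 99.1 and 98.6 in Dapa. Case minus Ctrl was −1.11 ± 0.40 in its promoter region (SE, limma, adjusted p = 0.249, exact permutation test, p = 0.0238), a small step on this scale. The Etfb promoter averaged 91.7 ± 6.34 for Ctrl, 82.5 ± 11.0 for Case and 88.6 ± 5.54 for Dapa (mean ± SD), and the groups overlapped. A region in the last part of Etfb, 10047 bases into the gene, stood at 89.0, 78.8, 84.1, 83.3 and 70.9 in Ctrl, at 61.7, 25.5, 7.62, 84.4, 66.7 and 72.2 in Case, and at 77.0, 33.7, 65.1, 52.5, 77.7 and 75.8 in Dapa. Case minus Ctrl was −28.2 ± 11.9 there (SE, limma, adjusted p = 0.315, exact permutation test, p = 0.0628). The lowest value was that of Case 3, and without it the difference was −19.2 (limma, adjusted p = 0.448).

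**Figure D4:**
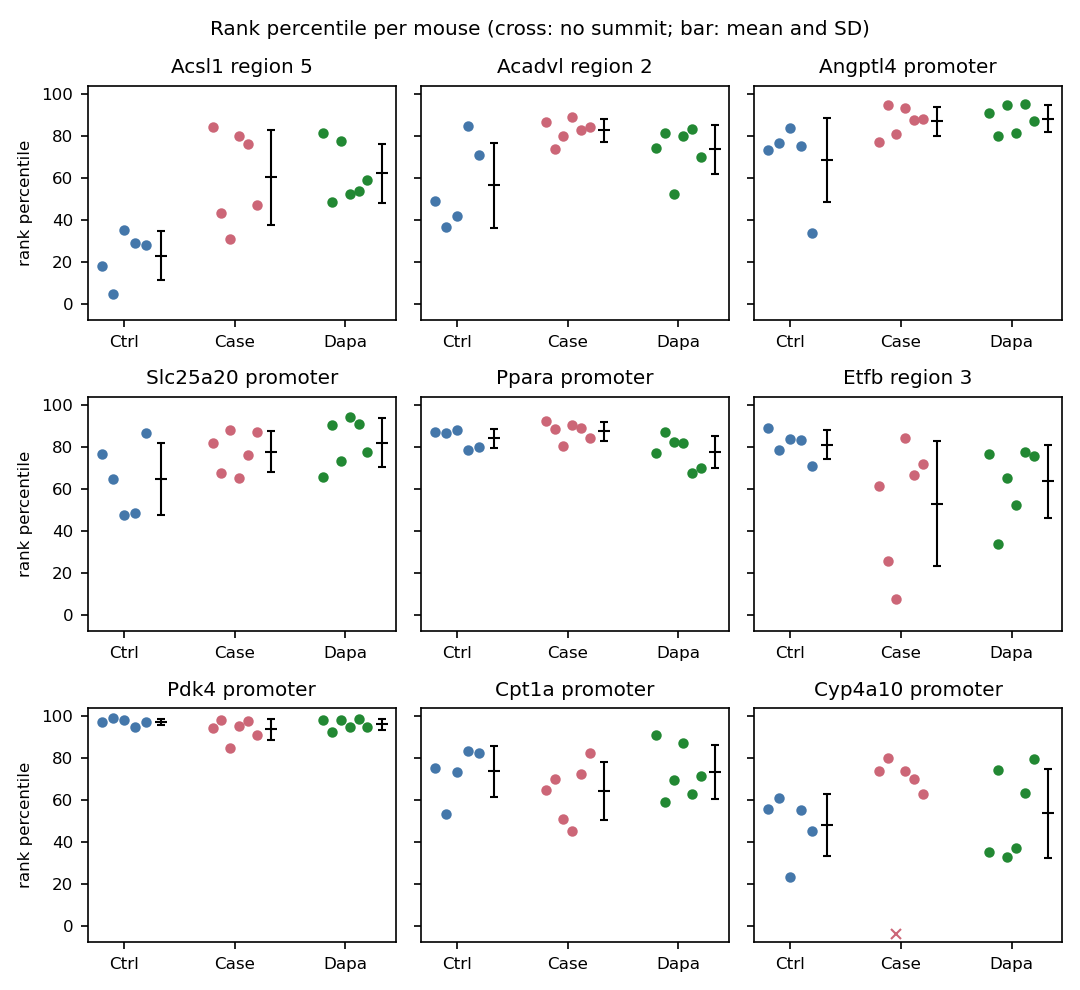
Rank percentile (0 to 100) of 9 promoters or regions in each mouse, by group, with mean and SD where every mouse had a summit and a cross for no summit. In Acsl1 region 5 the 6 Dapa mice (48.8 to 81.5) lie above the 5 Ctrl mice (4.81 to 35.3), while in most other panels the groups overlap.

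In the peroxisome, Ehhadh, the bifunctional enzyme, and the thiolase Acaa1a had a promoter summit in 17 lists and its near-identical copy Acaa1b in 14. Whether reads from that pair of thiolases can be separated was not tested, so their values are uncertain to that extent. Their promoter sequences do differ, with a GC content of 53.3% for Acaa1a and 43.7% for Acaa1b. Acaa1a stood between 90.7 and 95.7 in Ctrl, 87.1 and 96.6 in Case, and 83.3 and 93.8 in Dapa, with Dapa minus Ctrl −4.84 ± 2.49 (SE, limma, adjusted p = 0.431, exact permutation test, p = 0.0455). The Acaa1b promoter was missing in Case 3, Case 4 and Dapa 8. One region 7.95 kb upstream of Acaa1b was singled out after its values were seen. It stood between 4.81 and 50.6 in Ctrl 1 to Ctrl 4, with none in Ctrl 5, at 80.7, 63.3, 55.1, 80.5, 50.7 and 68.8 in Case, and at 63.1, 69.2, 64.9, 74.2, 63.3 and 61.7 in Dapa. All 12 db/db mice lay above every Ctrl mouse, though Case 5 (50.7) only just. Being absent from 1 list, it entered the rank test only without Ctrl 5, where Case minus Ctrl was 41.3 ± 9.46 (SE, limma, adjusted p = 0.0501) and Dapa minus Ctrl 40.8 ± 9.46 (adjusted p = 0.0596), or with 0 for the missing summit, where they were 46.3 and 45.9 (adjusted p = 0.0623 and 0.0972).

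The ketone body genes were less steady. Acat1, the mitochondrial acetoacetyl-CoA thiolase, had a promoter summit in 5 of 5 Ctrl mice, 6 of 6 Case mice and 4 of 6 Dapa mice, and Bdh1, which makes hydroxybutyrate, in 5 of 5, 5 of 6 and 5 of 6. Acat1 stood between 50.4 and 64.9 in Ctrl and between 13.2 and 55.5 in Case, and between 27.2 and 65.6 in the 4 Dapa mice with a summit. With 0 for the missing summits, Dapa minus Ctrl was −28.6 ± 12.8 for Acat1 (SE, limma, adjusted p = 0.367).

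Omega-oxidation, the microsomal route that PPAR alpha induces most strongly in rodents, was represented by Cyp4a10 and Cyp4a14, neighbouring genes of the same family. How well reads separate them was not tested. Cyp4a10 had a promoter summit in 16 lists, at 55.7, 60.8, 23.3, 55.5 and 45.1 in Ctrl, at 74.1, 80.0, 73.8, 70.2 and 62.9 in Case, with none in Case 3, and at 35.0, 74.6, 32.6, 36.9, 63.6 and 79.6 in Dapa. The 5 Case mice with a summit lay above every Ctrl mouse, and the Dapa mice covered both ranges. Without Case 3, Case minus Ctrl was 24.2 ± 10.6 (SE, limma, adjusted p = 0.41) and Dapa minus Case −18.5 ± 10.1 (adjusted p = 0.814). With 0 for the missing summit the first was 12.1 ± 13.8 (limma, adjusted p = 0.763), so its size rests on that library. Cyp4a14 had a promoter summit in no Ctrl mouse, in Case 1, Case 2 and Case 6 at 27.4, 33.2 and 16.0, and in Dapa 11 and Dapa 12 at 3.25 and 13.8. All 5 summits were low in their lists, and with so few of them the presence in Case against Ctrl could not reach a p of 0.05. In the lists of 14851 summits the difference in share between Case and Ctrl was 0.

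Among the genes of uptake, binding and storage, Fabp3, a fatty acid binding protein, Plin2, which coats lipid droplets, and Angptl4, an inhibitor of lipoprotein lipase, had a promoter summit in all 17 lists. Cd36, the fatty acid translocase, was the exception. Its promoter had a summit in 4 of 5 Ctrl mice, at 50.6, 27.5, 48.6 and 27.9, in none of the 6 Case mice, and in 1 of 6 Dapa mice, at 27.2. The presence in Case against Ctrl had a p of 0.0152 by Fisher's exact test, 2-sided, and an adjusted p of 0.134 over the 1553 genes that could be tested. Of those genes 11.3% reached an unadjusted p under 0.05, 170 of the 175 with fewer Case mice. The Dapa against Ctrl difference had p = 0.0801 (Fisher's exact test, adjusted p = 0.327). In the complete lists the counts were the same, and in the lists of 14851 the difference in share was −0.2 in place of −0.8.

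The Cd36 regions lay at 2 starts and in introns. The region at the upstream start (chr5:17889219-17889809) was present in 3 of 5 Ctrl mice, 0 of 6 Case mice and 0 of 6 Dapa mice, the start 39 kb into the gene in 2, 0 and 1, and an intron region (chr5:17862986-17863587) in 5 of 5, 2 of 6 and 2 of 6. In that intron region the Fisher's exact test gave p = 0.0606 against Ctrl for both db/db groups (adjusted p = 0.338 and 0.395). Another intron region (chr5:17858357-17858881) went the other way, with a summit in 0 Ctrl mice, 1 Case mouse and 1 Dapa mouse. Cd36 is also a gene of macrophages, endothelium and fat cells. Of the 12 leukocyte promoters, Ctrl mice had 0 to 1 with a summit, Case mice 0 to 6 and Dapa mice 0 to 5, the highest counts being those of Case 3 and Dapa 8. Of the 8 endothelial promoters, 0 to 1 had a summit in any mouse, and of the 10 adipocyte promoters 1 to 2. Ptprc, Itgam, Pecam1, Emcn, Adipoq and Fabp4 had none in any mouse, while Kdr, Flt1 and Plin1 had one in some mice and Pck1 in all. The adipocyte count thus rests on Pck1 in every mouse, and Plin1 was the only other adipocyte promoter with a summit. In gene windows the mean share of markers with a summit in Ctrl, Case and Dapa was 20%, 37.5% and 39.6% for endothelium, 45%, 51.4% and 56.9% for leukocytes, and 40%, 40% and 35% for adipocytes. The endothelial order turned in the complete lists, at 57.5%, 43.8% and 54.2%, and the shares were 12.5%, 14.6% and 14.6% in the lists of 14851 summits. Proximal tubule promoters with a summit numbered 9 or 10 of 12 in Ctrl, 6 to 10 in Case and 7 to 11 in Dapa. Their window shares were 98.3%, 86.1% and 94.4%, and 78.3%, 75% and 80.6% in the lists of 14851 summits. The part of cell makeup in the Cd36 difference was not tested.

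Angptl4 had the largest difference among the 24 promoters tested by rank. The summit lies 2.37 kb into the gene, 315 bases before an internal annotated start. It stood at 73.2, 77.0, 84.0, 75.5 and 33.7 in Ctrl, at 77.1, 94.8, 81.0, 93.7, 87.7 and 88.1 in Case, and at 90.9, 80.0, 94.9, 81.7, 95.6 and 87.4 in Dapa. Most db/db mice lay above the Ctrl mice, with overlap at the lower end, and Ctrl 5 was far below all others. Case minus Ctrl was 18.4 ± 6.92 (SE, limma, adjusted p = 0.371, exact permutation test, p = 0.0152) and Dapa minus Ctrl 19.7 ± 6.92 (adjusted p = 0.322, exact permutation test, p = 0.00866). Without Ctrl 5 they were 9.61 and 11.0 (limma, adjusted p = 0.614 and 0.488), so the size rests in large part on that mouse. At the gene's outer start a summit was seen in 4 of 5 Ctrl mice, 1 of 6 Case mice and 2 of 6 Dapa mice. The Plin2 promoter ranged from 0.26 in Case 5 to 73.4 in Ctrl 2. Fabp3 stood between 48.7 and 92.2 with no separation of groups.

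Pdk4, the kinase that turns off pyruvate oxidation when fat is burnt, had one of the highest-ranked promoters. It stood at 97.1, 99.2, 98.3, 95.1 and 97.4 in Ctrl, at 94.5, 98.4, 85.0, 95.3, 97.9 and 91.3 in Case, and at 98.4, 92.3, 98.1, 95.1, 98.7 and 94.9 in Dapa. Case 3 was the lowest, and the groups overlapped. Case minus Ctrl was −3.69 ± 1.86 (SE, limma, adjusted p = 0.49, exact permutation test, p = 0.143), and −1.94 without Case 3.

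**Figure D5:**
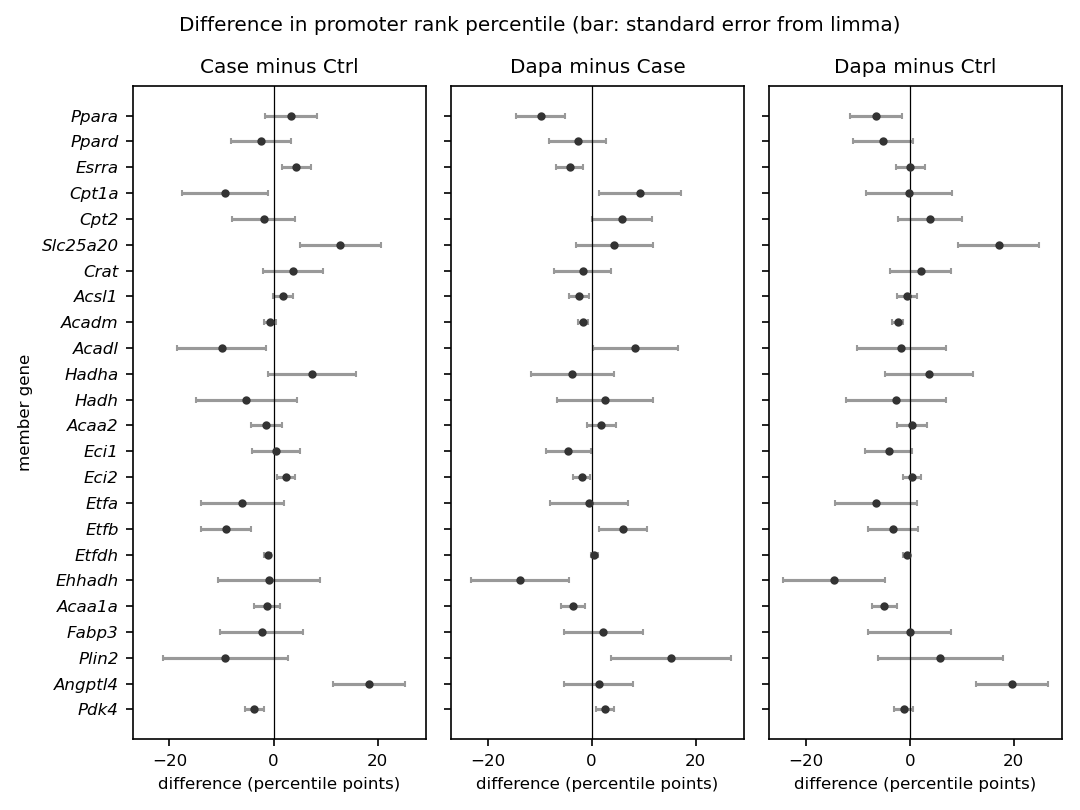
Difference in promoter rank percentile (points, in percentile points; bars, standard error from limma) for the 24 genes with a summit in all 17 lists, in the 3 comparisons. Angptl4 and Slc25a20 lie farthest to the right against Ctrl (18.4 and 12.8 for Case, 19.7 and 17.1 for Dapa), and most other genes lie near 0.

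Counted over the list, no gene passed an adjusted p of 0.05 in any comparison. For promoter rank, limma called 0 of 6924 genes (0%) in each comparison. At an unadjusted p under 0.05 it reached 1 of the 24 genes for Case minus Ctrl, against 10.2% of all genes tested, 1 of 24 for Dapa minus Case, against 5.75%, and 3 of 24 for Dapa minus Ctrl, against 12%. These shares are at or near the background. The median difference over the 24 genes was −1.18 for Case minus Ctrl and −0.59 for Dapa minus Ctrl, beside −1.35 and −1.57 over all 6924. Of the 28 other pathway genes tested, 0 passed the adjusted threshold, and 2 reached an unadjusted p under 0.05 in each comparison, all lower in the group named first.

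For presence, few of these genes could be tested, because a gene seen in nearly all mice cannot reach a low p. Only 1 of the 36 was testable at the promoter in each comparison, Cd36 against Ctrl and Cyp4a14 for Dapa against Case. The unadjusted threshold was passed by 1.32% of testable promoters for Dapa against Case and by 8.41% for Dapa against Ctrl. For gene windows it was passed by 7.89% for Case against Ctrl, 1.02% for Dapa against Case and 6.14% for Dapa against Ctrl. Of the 36 genes 0, 0 and 1 could be tested there, and that 1 did not reach it. No gene of the annotation passed the adjusted threshold in any of these presence tests.

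Within the gene windows lay 132 regions found in at least 2 libraries, of which 51 were at promoters, 59 in introns and 19 upstream. Promoter regions were the steady ones, with 24 of 51 in all 17 lists, against 6 of the 81 others (7.41%). Over all regions of the genome 15% were in all 17 lists, and over the 132 it was 22.7%. Rxra had the most regions, 13, and Acsl1 had 3 in all 17 lists, the most of any gene. By region rank, limma called 40 of 7863 regions (0.509%) for Case minus Ctrl, 0 (0%) for Dapa minus Case and 34 (0.432%) for Dapa minus Ctrl. None of the 30 testable regions of these genes was among them. At an unadjusted p under 0.05 there were 5 of 30 for Case minus Ctrl (3 higher, 2 lower, against 12.7% of all regions), 0 of 30 for Dapa minus Case (against 5.9%) and 6 of 30 for Dapa minus Ctrl (4 higher, 2 lower, against 13.6%). By region presence it was 0 of 19 testable regions for Case against Ctrl (10.2% of all), 0 of 16 for Dapa against Case (1.17%) and 1 of 27 for Dapa against Ctrl (8.04%), the upstream Ppara region.

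In the comparison of Dapa with Case, which share strain and genotype, 12 of the 24 promoters were higher and 12 lower, and Ppara had the lowest p. At Acsl1 region 5 and the Angptl4 promoter, Dapa minus Case was 1.88 ± 10.1 and 1.35 ± 6.59 percentile points (SE, limma, adjusted p = 0.995 and 0.983). At Etfb region 3 and the region upstream of Acadvl, the Dapa means (63.7 and 73.7) lay between those of Case (53.0 and 82.9) and Ctrl (81.2 and 56.6), and Dapa minus Case was 10.6 ± 11.3 and −9.20 ± 7.59 (SE, limma, adjusted p = 0.898 and 0.86).

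Single regions with the 2 lowest p in each direction between Dapa and Case were as follows. Ppara region 3 is 1 of its 2 promoter regions, and the promoter values above take the higher of both in each mouse. This region differed by −12.7 ± 6.41 and Acaa1a region 1 by −3.60 percentile points. Cpt1a region 2, which covers the RefSeq promoter of the gene, differed by 13.5 ± 9.66. Ppard region 1, which lies inside the neighbouring gene Def6, differed by 3.97 ± 2.55 (for these regions SE where given, limma, adjusted p from 0.808 to 0.837). Single mice carried much of 2 of these: the Ppara difference was −6.33 without Dapa 12, and that of Cpt1a region 2 was 5.77 without Case 6. In presence, an intron region of Hadh, 8.12 kb into the gene, had a summit in 5 Ctrl, 3 Case and 6 Dapa mice. The 5′ end of Eci2 had one in 3 Dapa mice alone, Dapa 7, Dapa 8 and Dapa 11, at 22.1, 27.6 and 53.7. Both had p = 0.182 for Dapa against Case by Fisher's exact test. Acads region 2, upstream of the gene, had a summit in 1 Ctrl and 2 Case mice, and Acsl1 region 3, an intron region, in 3 Case mice and 1 Dapa mouse.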

How the data were processed

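ATAC-seq was made from 20000 kidney cells per mouse. The authors aligned reads to mm10 with Bowtie2 (ENCODE pipeline), left out duplicate reads and blacklisted regions, shifted reads to the cut site, and called summits with MACS2 in each library (versions are not given in the sources used here). Each deposited file holds summit positions with the caller's score, a −log10 value whose basis, p or q, is not stated. Scores depend on depth and were used only to rank summits within a library. Summits on 19 autosomes, X and Y were matched to GENCODE M21. Presence was tested gene by gene (Fisher's exact test, 2-sided), and rank percentiles of features present in all 17 lists by limma 3.58.1 with a mean-variance trend in R 4.3.3, beside a 2-sided exact permutation test per feature, with Benjamini-Hochberg adjustment over all testable features. The permutation p-values printed with single features are unadjusted. Consensus regions were summits extended by 250 bp, merged and kept if found in at least 2 libraries. The scripts, in Python 3.11.15, were tested on simulated data. Named beside the whole list are, per measure and comparison, the 2 members with the smallest p in each direction where none passed the threshold, with values per mouse for these and 6 chosen genes (Ppara, Cpt1a, Cyp4a10, Cyp4a14, Pdk4, Angptl4). Other values per mouse, and regions named for a motif, were added after values were seen. Members and lists were chosen with earlier results of these data known. Mice are the replicates, and p-values measure the spread between them. The labels name no batch. Some items are not reported here. Alternatives are given in the closing section.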

Additional observations from a re-analysis of the deposited data

Results flagged for a closer look

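In groups of 5 or 6 mice, 1 mouse stood apart from the others by Dixon's criterion in 11 of 78 groups of values examined, where chance gives about 1 in 20, or 3.9. In Ctrl, Angptl4 stood at 33.7 in Ctrl 5 against 73.2 to 84.0 in the others, and Acadl at 55.5 in Ctrl 4 against 80.8 to 90.4. In Case, the Ppard promoter stood at 67.1 in Case 1 against 87.5 to 91.9, Esrra at 89.2 in Case 2 against 94.7 to 97.7, and Etfa at 48.1 in Case 2 against 82.1 to 95.5. In Dapa, the main Acsl1 promoter stood at 83.4 in Dapa 10 against 95.3 to 99.5, Acadm at 90.9 in Dapa 12 against 97.4 to 99.4, and Ehhadh at 6.93 in Dapa 9 against 63.0 to 84.8. By share of the 36 genes, Ctrl 1 was low at promoters with 91.7%, Ctrl 5 was low in gene windows with 97.2%, and Dapa 11 was high at promoters with 100%. In 8 of these 11 groups the mouse that stood apart was a single low promoter percentile.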

How the results depend on the processing

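Of 1107 alternative values for 57 named results (a gene or region in 1 measure and comparison), 1097 neither reversed nor crossed the threshold. These include differences that disappeared, such as that of the Cyp4a14 promoter between Case and Ctrl in lists of 14851 summits. The upstream Acadvl region passed the threshold without Ctrl 4 (33.3), the only member value called in 140 fits and comparisons of rank. Presence reversed in 9 cases, none with a called value: in lists of 14851 summits for Acaa1b (0.1 for Case minus Ctrl, −0.167 for Dapa minus Case), Acat1 (0.167, Dapa minus Case), Rxra (−0.0667, Dapa minus Ctrl), the Bdh1 window (0.0333 and −0.167) and the Cyp4a10 window (−0.167, Dapa minus Case), with promoters within 3 kb for Cyp4a14 (−0.3, Dapa minus Ctrl), and without Ctrl 5 for the Cyp4a14 window (−0.167, Case minus Ctrl, with values up to 0.2 when other single mice were left out). The cause was not tested.

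Counts over all features moved more. Promoters called by rank numbered 4 with all annotated genes, 13, 1 and 1 (Case minus Ctrl, Dapa minus Case, Dapa minus Ctrl) with a summit in at least 9 of 17 lists, and 113 and 33 against Ctrl on a logit scale. Regions called by rank against Ctrl numbered 17 and 5 in complete lists, 221 and 108 on a logit scale and 22 and 7 without the trend, and 180 for Case with the looser filter, which gave 1 for Dapa minus Case. An exact permutation test called 0 in both, but its smallest possible p is 0.00216, so no region can pass unless very many reach that value, and this 0 says nothing about stability. Leaving out 1 mouse gave 17 (without Case 6) to 105 regions (without Ctrl 4) for Case minus Ctrl, and 1 (without Ctrl 3 or Dapa 9) to 84 (without Ctrl 4) for Dapa minus Ctrl. In lists of 14851 summits the share of the 36 promoters was 79.4%, 80.1% and 79.2% in Ctrl, Case and Dapa, and of windows 88.3%, 89.8% and 89.4%, with promoters within 3 kb 98.9% in Ctrl. Leaving out 1 mouse moved the promoter shares to 95.8% to 97.2%, 90.6% to 92.8% and 92.8% to 94.4%.

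With Ctrl and Case mice of the same number treated as pairs (replicate block), limma called 0 regions in place of 40. The numbers did not mark pairs: correlations of same-numbered mice ran from −0.061 to 0.036, and 1 of 5 Ctrl mice was closest to its own number. Depth is unknown, so low-ranked summits such as those at the promoters of Cyp4a14 and Cd36 are the least certain.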
